A study of Homo sapiens with 10 samples.

Results

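The numbered GPR genes encode receptors, or receptor-like membrane proteins, that were named by sequence before a ligand was known. The set held every gene whose platform annotation gave a probe set exactly 1 symbol made of GPR, digits and at most 1 letter, with the brightest probe set kept for each gene. This gave 58 genes from 60 probe sets, of 14232 genes that the array named. The cells were SH-SY5Y, a human neuroblastoma line, carrying a stable transfection of either wild-type SOD1 or SOD1(G93A), a superoxide dismutase mutant of familial amyotrophic lateral sclerosis. RNA of 5 samples of each line was hybridised to Affymetrix exon arrays, and both lines were grown in G418. Whether the samples were separate cultures and whether a line was 1 clone or a pool are points the sources used here do not give, so p-values measure only the spread between these samples, and the construct cannot be told apart from other differences between the lines. The wild-type samples carry the numbers 2, 8, 11, 14 and 17 and the SOD1(G93A) samples 3, 9, 12, 15 and 18.

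A G protein-coupled receptor crosses the membrane with 7 helices, and when active it makes a heterotrimeric G protein exchange GDP for GTP. The α subunit and the βγ pair then act on enzymes and channels, RGS proteins shorten the signal by speeding GTP hydrolysis, and receptor kinases and arrestins switch the receptor off. Most orphan receptors belong to class A, the rhodopsin family, and many are found chiefly in neurons. Several proteins with GPR symbols sit in the Golgi or the lysosome and are not known to work as classical receptors.

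The array values are gene-level log2 intensities, so a difference of 1 is a doubling. Array medians lay between 6.26 and 6.34, and any pair of arrays had a correlation of 0.990 to 0.994 if of 1 group and 0.986 to 0.990 if not. On principal components 2 and 3, samples 17 and 18 were the farthest from the medians of their own groups. Of 5 measured noradrenergic neuroblastoma markers, GATA2, GATA3, ISL1 and PHOX2A had means between 9.26 and 10.4 and TH, the enzyme of catecholamine synthesis, had 5.63. GATA2 and GATA3 fell by 0.58 and 0.38 (adjusted p by limma 0.00131 and 0.00732). ISL1, PHOX2A and TH differed by 0.23, 0.17 and 0.08 and were not called (adjusted p by limma 0.255, 0.380 and 0.553). The mean over the noradrenergic list lay between 8.96 and 9.15 in the wild-type and between 8.79 and 9.00 in the SOD1(G93A) arrays, so the ranges overlapped. Of 7 mesenchymal (S-type) markers, 5 were called (71.4%, against 9.6% of all named genes). YAP1, CD44, FN1 and VIM rose by 0.66, 0.47, 0.46 and 0.37 (adjusted p by limma at most 0.0139). SNAI2 fell by 1.03 (adjusted p by limma 7.33e-05). FOSL1 and PRRX1 differed by 0.31 and −0.05 and were not called (adjusted p by limma 0.123 and 0.880). The mean over this list lay between 6.48 and 6.69 in the wild-type and between 6.64 and 6.85 in the SOD1(G93A) arrays, so the ranges overlapped. PRRX1, a mesenchymal transcription factor, had a mean of 3.26, below 3.87, the lower quartile of probe set means. The Schwann and glial list had 4 measured genes, of which only S100B, with a mean of 4.05, was called. It rose by 0.73 (adjusted p by limma 0.00239). ERBB3, SOX10 and GFAP differed by 0.16, −0.04 and −0.03 and were not called (adjusted p by limma 0.22, 0.86 and 0.87). The list mean, which includes S100B, was 4.32 to 4.38 against 4.48 to 4.63. Of the 6 measured immune and endothelial markers, 0 were called by limma, an ordinary linear model or limma with a trend, and 0 had an unadjusted p under 0.05. The part of these marker shifts in the receptor differences was not tested.

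Of the 58 receptor genes, limma called 5 (adjusted p no higher than 0.05), against 7.46% of all 22011 probe sets. GPR22, GPR155 and GPR176 rose in the SOD1(G93A) line (3 members, background 3.24%), and GPR85 and GPR137B fell (2 members, background 4.23%). The 5 are 8.62% of the members, near the background share and below the 9.6% called among all named genes. With the labels' further threshold of 2-fold, 1 member remained, GPR22, against 0.872% of all probe sets. The groups did not overlap in 6 members, or 10.3%, against 8.88% of all probe sets and 11.4% of all named genes. In RNA from whole cultures, fewer cells with a transcript and less of it per cell cannot be told apart. The median difference over the 58 genes was 0.01, and over all probe sets it was 0.00068.

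**Figure D1:**
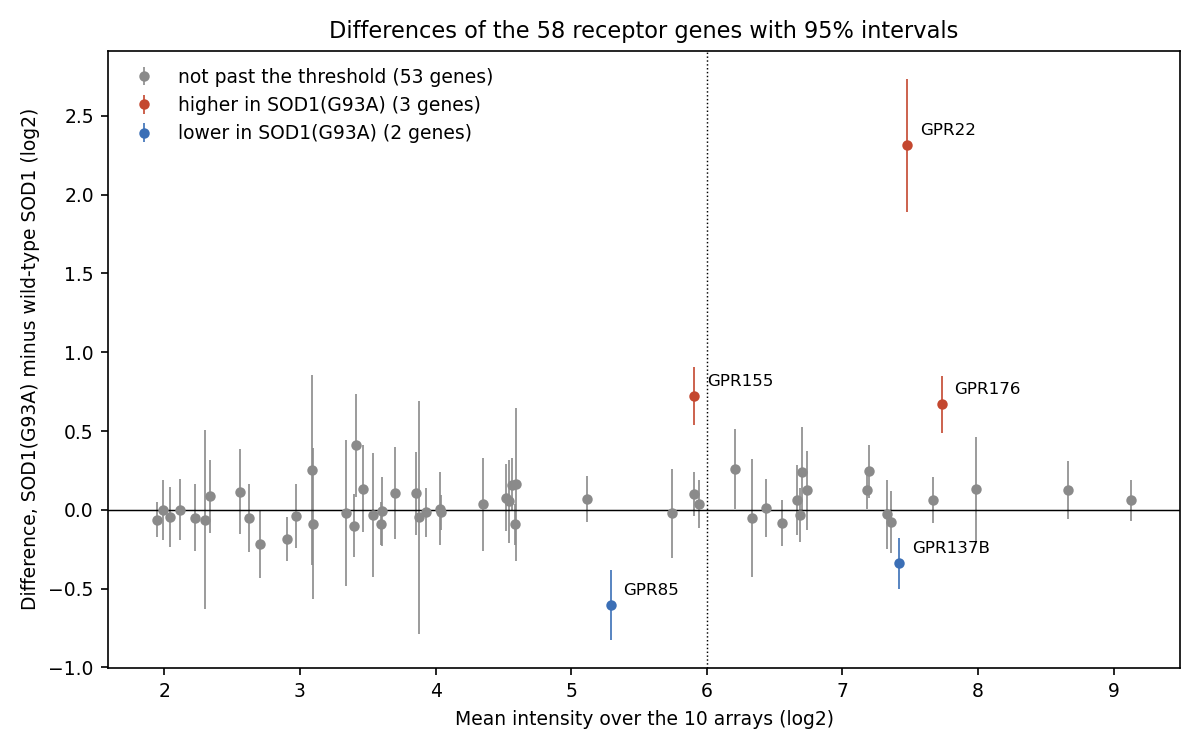
Difference between SOD1(G93A) and wild-type SOD1 arrays (log2, vertical) against the mean intensity over the 10 arrays (log2, horizontal) for each of the 58 receptor genes, with bars for the 95% interval from limma and a dotted line at a mean of 6. GPR22 stands at 2.31, GPR155 at 0.72 and GPR176 at 0.67, while GPR85 and GPR137B lie below 0 at −0.60 and −0.34.

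GPR22 is a class A orphan known from brain and heart and reported to couple to inhibitory G proteins. In the wild-type line its values were 6.72, 6.29, 6.11, 6.35 and 6.13 in samples 2, 8, 11, 14 and 17. In the SOD1(G93A) line they were 8.46, 8.30, 8.83, 8.31 and 9.26 in samples 3, 9, 12, 15 and 18. Every SOD1(G93A) array was above every wild-type array, and sample 18 was the highest. The means were 6.32 ± 0.25 and 8.63 ± 0.41 (SD, n = 5 each). The log2 difference was 2.31 (SE 0.19, adjusted p by limma 2.15e-05), a 4.97-fold rise with a 95% interval of 3.71 to 6.66. Without any 1 array it stayed between 2.16 and 2.41.

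The starts of GPR22 and GPR85 are shown because these genes had the largest rise and the largest fall of the set. Each line gives the 250 bases before the start listed in RefSeq (build GRCh38.p14), at chr7:107469807-107470056 on the + strand for GPR22 and chr7:113087725-113087974 on the − strand for GPR85. Capitals mark the TATA box letters TATAAA and the CCAAT box letters CCAAT on either strand, and in GPR22 the TATAAA letters of both strands overlap.
GPR22: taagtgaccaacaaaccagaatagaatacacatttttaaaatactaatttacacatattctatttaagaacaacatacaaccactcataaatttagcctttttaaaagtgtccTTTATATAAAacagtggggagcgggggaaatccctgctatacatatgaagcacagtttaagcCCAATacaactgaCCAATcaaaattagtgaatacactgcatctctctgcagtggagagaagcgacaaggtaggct
GPR85: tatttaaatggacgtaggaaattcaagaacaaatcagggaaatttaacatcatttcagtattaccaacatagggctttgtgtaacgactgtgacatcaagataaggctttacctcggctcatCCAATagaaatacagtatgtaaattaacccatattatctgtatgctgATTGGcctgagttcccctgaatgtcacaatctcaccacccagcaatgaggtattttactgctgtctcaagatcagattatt

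Promoter sequences matched 49 of the 58 members, and 4 of the 5 called ones. The GPR22 stretch had 35.6% G and C and 2 CpG pairs, and that of GPR85 37.2% and 3, against medians of 58% and 11 over 35116 listed starts. GPR176 had 67.2% and 23 CpG pairs at its first listed start, and GPR137B 83.2% and 46. Searched on both strands in windows of the same length, CCAAT was found in GPR22, GPR85 and GPR137B and in 32.0% of all starts. TATAAA was found in GPR22 and in 10.7% of all starts. The GC box letters GGGCGG were found in GPR176 and GPR137B and in 42.6% of all starts. TGACG, a shortened cAMP response element, was found in GPR176 and in 21.2% of all starts. The full element TGACGTCA, which contains it, and the E-box CACGTG were in none of these 4 windows, with shares of 1.65% and 6.35% over all starts. GPR85 and GPR176 have a second listed start, which was not used in these statements.

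In the RefSeq gene order GPR22 overlaps COG5, which encodes a subunit of the conserved oligomeric Golgi complex. COG5 rose by 0.36 (SE 0.06, adjusted p by limma 0.00456), from 8.21 ± 0.05 to 8.57 ± 0.11 (SD, n = 5 each), with no overlap between the groups. BCAP29, the next measured gene on 1 side, differed by 0.38 (SE 0.12) with an adjusted p of 0.107, and PRKAR2B on the other side by −0.03 (SE 0.09, adjusted p = 0.908). Which probes of GPR22 and COG5 lie in shared sequence was not examined. Around the other 4 called receptors, 1 of 8 flanking genes was called, against 9.6% of all named genes. It was FSIP1 beside GPR176 (0.28, SE 0.07, adjusted p by limma 0.0472), with a mean of 3.35 and overlapping groups. Leaving out any 1 of 7 arrays ended the FSIP1 call, with an adjusted p of at most 0.107.

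GPR176 is a class A orphan of the suprachiasmatic clock that is known to signal through the G protein Gz. Its values in the wild-type samples, in the order above, were 7.19, 7.31, 7.45, 7.42 and 7.62. In the SOD1(G93A) samples they were 8.09, 8.00, 8.03, 8.01 and 8.20. The lowest SOD1(G93A) array was above the highest wild-type array, and the SOD1(G93A) values were closer together. The means were 7.40 ± 0.16 and 8.07 ± 0.08 (SD, n = 5 each), and the difference was 0.67 (SE 0.08, adjusted p by limma 0.000414), or 1.59-fold. GNAZ, the α subunit of Gz, differed by −0.08 (SE 0.07, 95% interval −0.22 to 0.07, adjusted p = 0.631).

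GPR155 encodes a lysosomal membrane protein that senses cholesterol and acts on the mTORC1 pathway. Its wild-type values were 5.55, 5.54, 5.58, 5.62 and 5.45, and its SOD1(G93A) values 6.38, 6.39, 6.01, 6.16 and 6.41. The groups were well apart, with sample 12 the lowest of the SOD1(G93A) arrays. The means were 5.55 ± 0.06 and 6.27 ± 0.18 (SD, n = 5 each), a difference of 0.72 (SE 0.08, adjusted p by limma 0.000298) or 1.65-fold. Its mean of 5.91 over all arrays placed it among the dimmer members although every SOD1(G93A) value was above 6.

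GPR85, also called SREB2, is a strongly conserved class A orphan of the brain. Its wild-type values were 5.49, 5.57, 5.84, 5.60 and 5.46. The SOD1(G93A) values were 4.93, 5.09, 4.82, 4.86 and 5.25. Every SOD1(G93A) array was below every wild-type array, with sample 18 nearest to them. The means were 5.59 ± 0.15 and 4.99 ± 0.18 (SD, n = 5 each), and GPR85 fell by 0.60 (SE 0.10, adjusted p by limma 0.00327), or 1.52-fold. Its relative GPR173, the other measured member of the SREB family, had 6.08 ± 0.16 and 6.34 ± 0.22 (SD, n = 5 each), a difference of 0.26 (SE 0.11, adjusted p by limma 0.251). Without samples 17 and 18 together, GPR173 was called higher (0.39, adjusted p = 0.0441) and the count of called members was 6. With any 1 array left out its adjusted p by limma ran from 0.0603 to 0.430.

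GPR137B encodes a lysosomal membrane protein that regulates Rag GTPases and mTORC1. Its wild-type values were 7.52, 7.59, 7.63, 7.47 and 7.74, against 7.32, 7.21, 7.08, 7.24 and 7.39 with SOD1(G93A). The groups did not overlap, but the highest SOD1(G93A) array, sample 18, was close to the lowest wild-type array, sample 14. The means were 7.59 ± 0.10 and 7.25 ± 0.12 (SD, n = 5 each). GPR137B fell by 0.34 (SE 0.07, adjusted p by limma 0.0162), or 1.27-fold. It was the smallest called difference of the set, with an adjusted p up to 0.0434 when 1 array was left out.

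**Figure D2:**
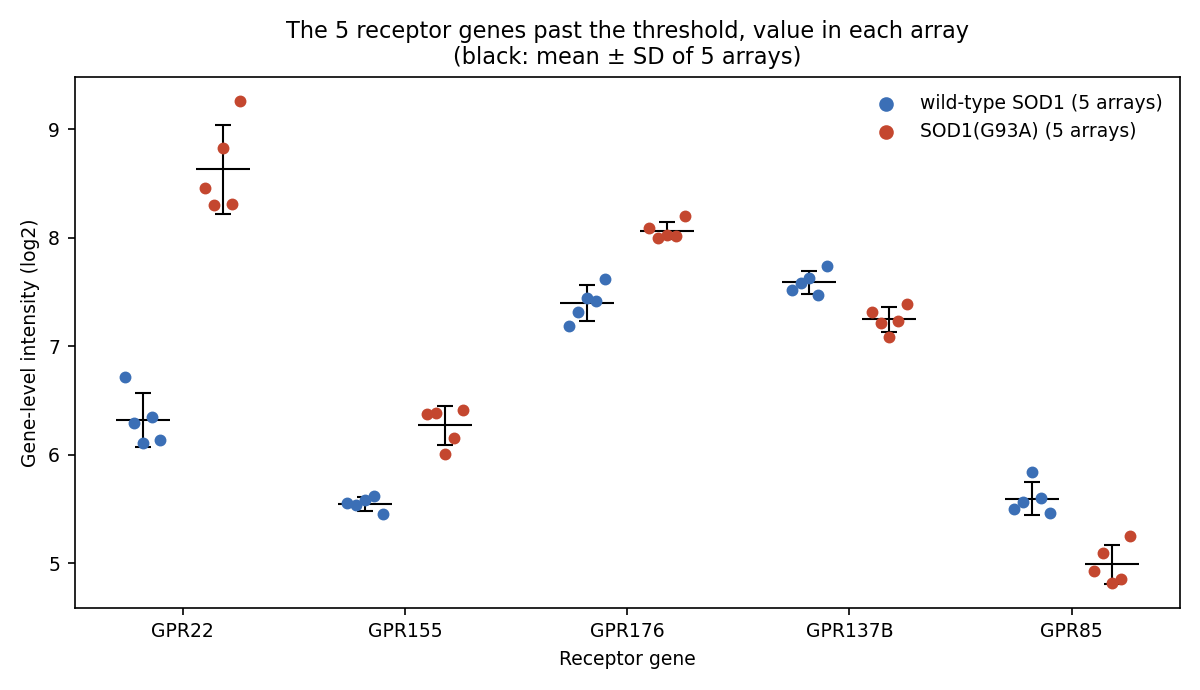
Gene-level intensity (log2, vertical) of the 5 called receptor genes in each array, wild-type SOD1 in blue and SOD1(G93A) in red, in order of sample number within a group; the black line and bar are the mean and SD of 5 arrays. The groups do not overlap in any of the 5 genes, and the gap is widest for GPR22 (6.72 at most against 8.30 at least).

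Members were also taken apart at a mean of 6 over the 10 arrays. Brightness depends on the probes as well as on the RNA, so it is no order of RNA amounts between genes. Of 19 members above 6, 3 were called (GPR22, GPR176 and GPR137B), against 9.7% of the probe sets above 6. Their median difference was 0.06, and that of the probe sets above 6 was 0.0051. With any 1 array left out the members' median lay between 0.04 and 0.10, and for members above a mean of 7 it was 0.13. Of 39 members at 6 or below, 2 were called (GPR155 and GPR85), against 4.9% of the probe sets in that range, with medians of −0.01 and −0.0048. The members' median had no stable sign: it ran from −0.02 to 0.03 with 1 array left out and was 0.0068 with array weights. The members next to the line were GPR173 at 6.21 and GPR78 at 5.94, and GPR78 differed by 0.04 (SE 0.07, adjusted p by limma 0.853).

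The array means over the 19 brighter members lay between 7.08 and 7.17 in the wild-type and between 7.25 and 7.43 in the SOD1(G93A) arrays, so they did not overlap. Without GPR22 they were 7.12 to 7.22 in the wild-type and 7.19 to 7.33 in the SOD1(G93A) arrays, and the ranges overlapped. Of these 19 genes, 13 had a difference above 0 and 6 below. Over the 39 dimmer members the array means were 3.63 to 3.77 and 3.64 to 3.77, and 18 differences were above 0 and 21 below.

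**Figure D3:**
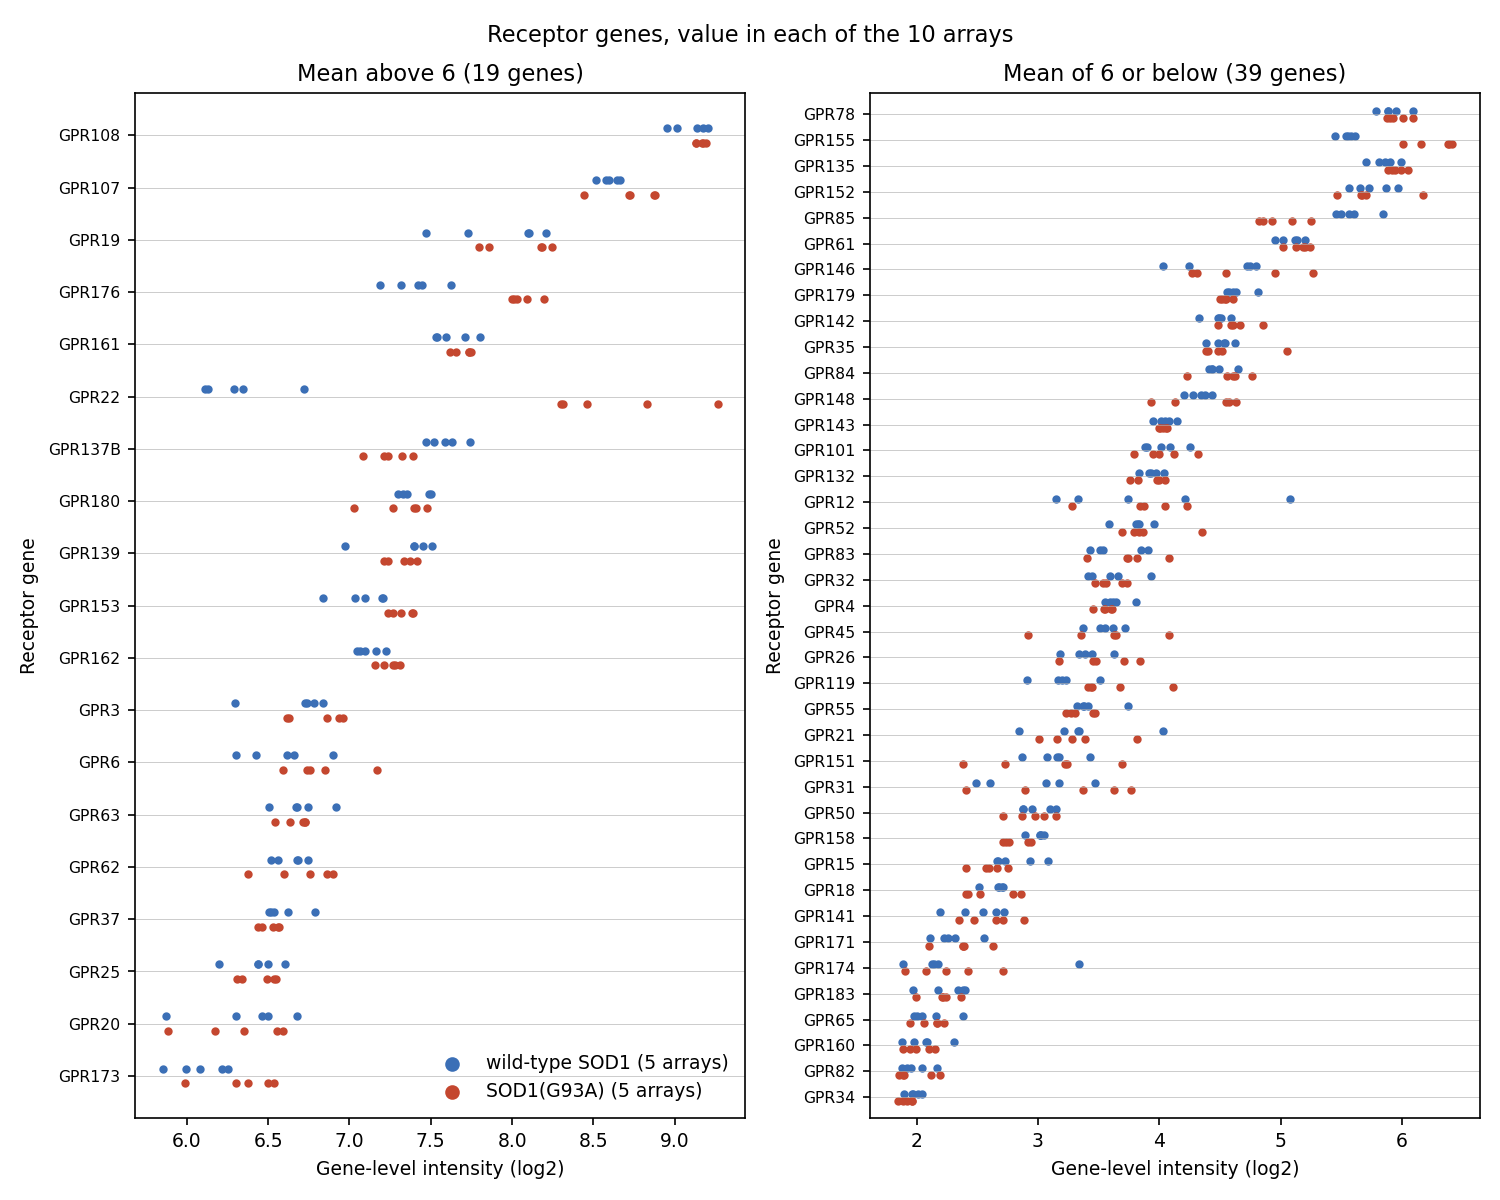
Gene-level intensity (log2, horizontal) of all 58 receptor genes in each of the 10 arrays, wild-type SOD1 in blue and SOD1(G93A) in red, in panels for means above 6 (19 genes) and of 6 or below (39 genes) that have different scales. Only GPR22, GPR176, GPR137B and GPR153 on the left and GPR155 and GPR85 on the right have groups that do not overlap.

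Among the intracellular or atypical proteins, 2 of 6 were called, GPR155 and GPR137B, against 7.46% of all probe sets and 9.6% of all named genes. GPR108, a Golgi protein needed for cell entry of some adeno-associated viruses, had 9.10 ± 0.11 and 9.16 ± 0.03 (SD, n = 5 each), a difference of 0.06 with a 95% interval of −0.07 to 0.19. Its Golgi relative GPR107 differed by 0.13 (95% interval −0.05 to 0.31, adjusted p by limma 0.476), and a second, dimmer probe set of GPR107 by 0.18 (SE 0.07, adjusted p = 0.212). GPR180 differed by −0.08 (95% interval −0.27 to 0.12). GPR143, the pigment cell receptor of ocular albinism, stayed between 3.95 and 4.14 in all 10 arrays.

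The remaining class A orphans, outside the SREB family and the classes described below, numbered 30. Of these, GPR22 and GPR176 were called, both higher, or 6.67% against 7.46% of all probe sets and 9.6% of all named genes. GPR19, a receptor of brain and testis, varied widely within groups, from 7.47 to 8.21 in the wild-type and from 7.80 to 8.25 in the SOD1(G93A) arrays, and its difference of 0.13 had a 95% interval of −0.20 to 0.46. GPR161, a ciliary receptor that restrains Hedgehog signalling, differed by 0.06 (95% interval −0.08 to 0.21). GPR139, a receptor of the habenula that responds to aromatic amino acids, differed by −0.03 (95% interval −0.25 to 0.19). GPR37, a substrate of the ubiquitin ligase parkin, differed by −0.08 (95% interval −0.23 to 0.06).

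GPR153 had no overlap between the groups but was not past the threshold. Its values were 6.84, 7.10, 7.20, 7.04 and 7.20 in the wild-type and 7.32, 7.23, 7.39, 7.27 and 7.39 in the SOD1(G93A) arrays. The highest wild-type and the lowest SOD1(G93A) arrays were almost level, and the difference was 0.24 (SE 0.08, adjusted p by limma 0.0907). Its relative GPR162 differed by 0.13 (SE 0.06, adjusted p = 0.244). Named after their values were seen, GPR119, GPR158 and GPR15 also had an unadjusted p under 0.05 by limma, with differences of 0.41, −0.19 and −0.22 and adjusted p of 0.147, 0.128 and 0.256. All 3 had means below 3.87.

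GPR3, GPR6 and GPR12, closely related receptors that raise cyclic AMP without an added ligand, differed by 0.12, 0.24 and −0.05. None of the 3 was called by limma or by either other test, where limma called 7.46% of all probe sets, and 0 had an unadjusted p under 0.05. Their 95% intervals were −0.13 to 0.38, −0.04 to 0.53 and −0.79 to 0.69. GPR12 had the widest spread within a group of all members, with 3.33, 3.74, 3.15, 4.21 and 5.08 in the wild-type and 3.84, 3.28, 3.87, 4.23 and 4.05 in the SOD1(G93A) arrays. Sample 17 was its highest array.

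Receptors of lipids, metabolites and nucleotides and their relatives, many of them immune-cell receptors, held 12 members. Limma and both other tests called 0 of them, where limma called 7.46% of all probe sets. An unadjusted p under 0.05 by limma was seen in 1, GPR119, a receptor of lipid amides in gut and islet cells. GPR34, GPR82, GPR183 and GPR174, named here as the dimmest of this class, had means of 1.95, 1.99, 2.23 and 2.30, in the range of the leukocyte marker PTPRC at 2.16. GPR174 was 3.34 in wild-type sample 17 and 1.89 to 2.71 in the other arrays. Among the proton-sensing receptors and their relative, GPR4, GPR65 and GPR132, 0 of 3 were called and 0 had an unadjusted p under 0.05, with differences of −0.09, 0.00 and −0.02. The class C orphans GPR158 and GPR179 were not called by any of the tests (adjusted p by limma 0.128 and 0.476), and 1 of them, GPR158, had an unadjusted p under 0.05.

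In all, 23 of the 58 members had means below 3.87, the lower quartile of the probe set means. Limma and both other tests called 0 of them, with 3 at an unadjusted p under 0.05 by limma. Of all probe sets at a mean of 6 or below, a range that reaches higher, limma called only 4.9%. The share among probe sets below 3.87 alone was not taken. For the 53 uncalled members the half-width of the 95% interval had a median of 0.21 and ran from 0.11 for GPR34 to 0.74 for GPR12. Differences within a member's interval are not excluded with 5 arrays per group. A call needed more than an interval that leaves out 0: GPR153, at 0.24 with a half-width of 0.17, was not called. RMA compresses differences of dim probes.

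Some of the measured genes that act behind the receptors were called, in both directions. The lists were set from knowledge of receptor signalling with earlier results of these data known. Of 28 measured G protein subunits, 1 rose and 1 fell, or 7.14% called, below the 9.6% called among all named genes. GNG2, a γ subunit of the brain, rose from 9.55 ± 0.17 to 10.5 ± 0.06 (SD, n = 5 each), a difference of 0.93 (SE 0.08, adjusted p by limma 2.82e-05). GNG4, another neuronal γ subunit, fell by 0.20 (SE 0.05, adjusted p by limma 0.0394). Leaving out any array other than wild-type sample 2 ended the GNG4 call, with an adjusted p of at most 0.0940. The α subunits of inhibitory G proteins GNAI1, GNAI2 and GNAI3 differed by 0.23, 0.19 and 0.18 and were not called (adjusted p by limma 0.325, 0.228 and 0.144). GNAS, the stimulatory α subunit, differed by −0.08 (95% interval −0.21 to 0.05).

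Of 19 measured RGS proteins, 2 rose and 2 fell (21.1% called, against 9.6% of all named genes), and the median difference was 0.01. RGS13, known from B cells, rose by 0.71 (SE 0.14, adjusted p by limma 0.0101) and RGS4, an abundant neuronal RGS protein, by 0.46 (SE 0.08, adjusted p by limma 0.00521). RGS9, known from striatum and retina, fell by 0.71 (SE 0.08, adjusted p by limma 0.000207). RGS16 fell by 0.41 (SE 0.09, adjusted p by limma 0.0191), and its call was lost without SOD1(G93A) sample 15 (adjusted p = 0.0536). RGS5 differed by 0.01 (95% interval −0.12 to 0.14).

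Of 9 measured receptor kinases and arrestins, 1 rose and 2 fell, or 33.3% called against 9.6% of all named genes. GRK3, a kinase that βγ subunits bring to active receptors, fell from 9.80 ± 0.14 to 9.04 ± 0.16 (SD, n = 5 each), by 0.76 (SE 0.09, adjusted p by limma 0.000413). Its near relative GRK2 differed by 0.03 (95% interval −0.10 to 0.17). GRK5 rose by 0.40 (SE 0.09, adjusted p by limma 0.0205) with overlapping groups, and the call was lost without SOD1(G93A) sample 15 (adjusted p = 0.0570). ARRB1, which encodes β-arrestin 1, fell by 0.34 (SE 0.07, adjusted p by limma 0.0137). Without samples 17 and 18 together, the adjusted p of ARRB1 was 0.0762.

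**Figure D4:**
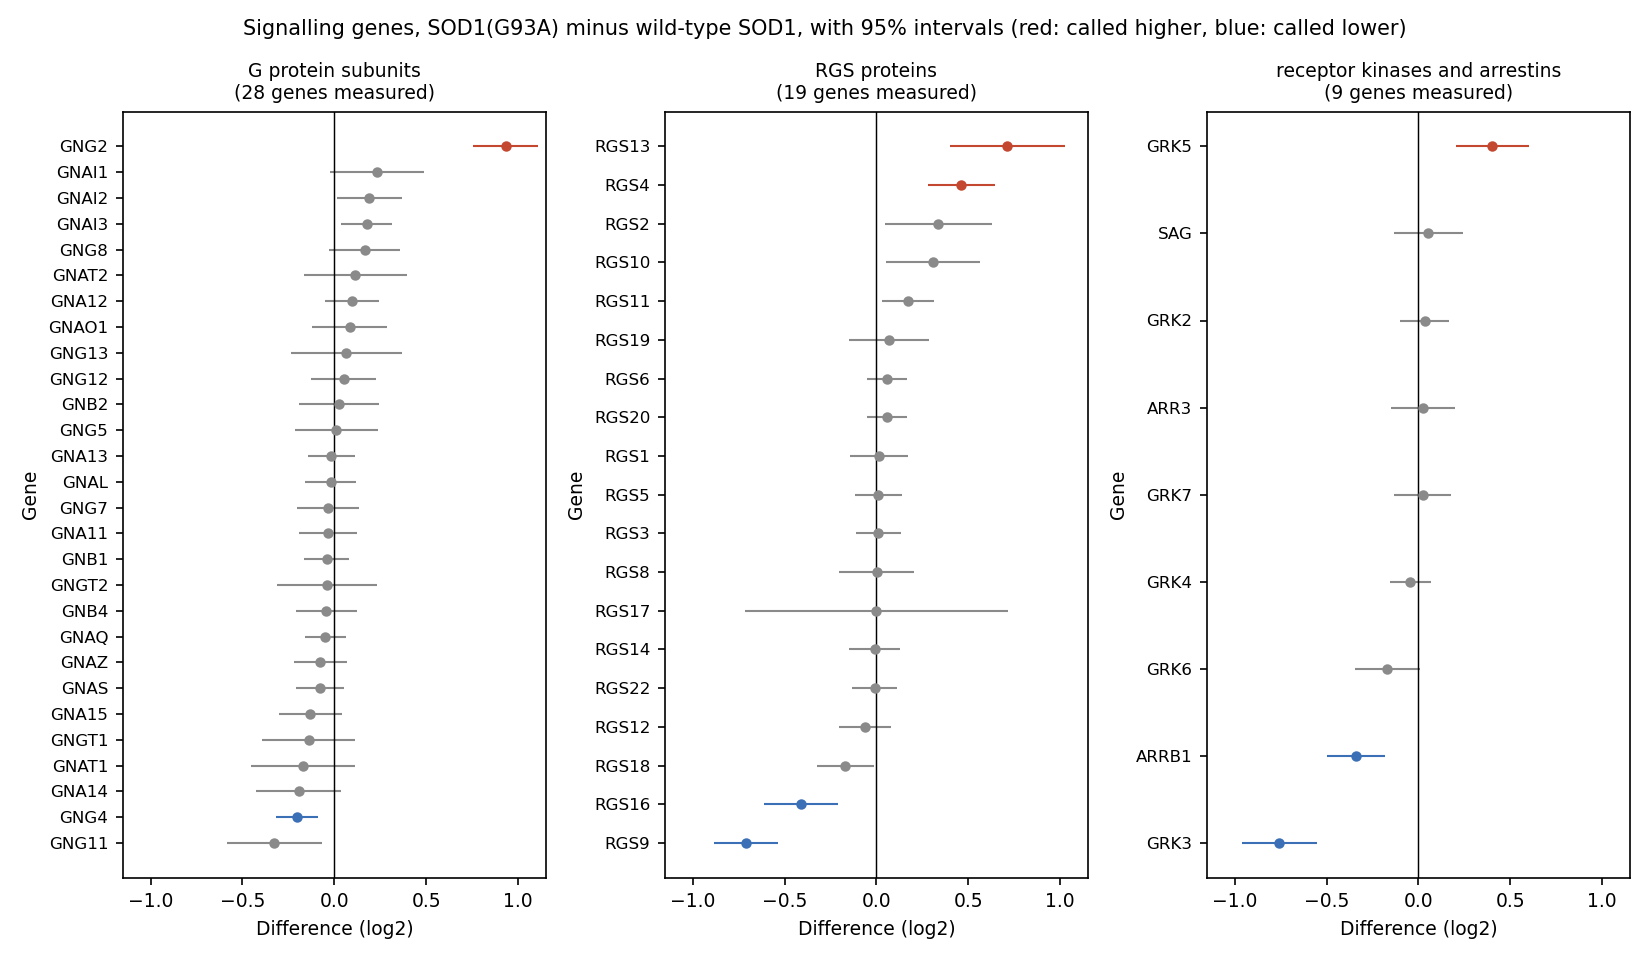
Difference between SOD1(G93A) and wild-type SOD1 arrays (log2, horizontal) with 95% intervals from limma for 28 G protein subunits, 19 RGS proteins and 9 receptor kinases and arrestins; red genes were called higher and blue genes lower. GNG2 at 0.93 lies farthest above 0 and GRK3 at −0.76 farthest below.

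Of 12 measured genes reported as ligands or partners of GPR proteins or of adhesion receptors, 2 rose and 2 fell. This is 33.3% against 9.6% of all named genes, in a list set with earlier results of these data known. GPC4, a glypican that binds GPR158 at synapses, rose by 0.80 (SE 0.12, adjusted p by limma 0.00219), while GPR158 itself had a mean of 2.91. The other 3 called genes, COL3A1 (2.33), COL4A1 (−2.13) and PRNP (−2.76), are ligands of adhesion receptors that the current annotation names ADGR and that are therefore no members. PSAP, whose product prosaposin was reported as a ligand of GPR37, differed by 0.11 (95% interval −0.03 to 0.26), and PCSK1N, the precursor of a reported GPR171 ligand, by −0.03 (95% interval −0.27 to 0.21).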

How the data were processed

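The authors deposited 1 log2 intensity per gene-level probe set and array, for 22011 probe sets and 10 arrays; they used RMA, per the submitters' processing notes, and oneChannelGUI 1.6.5, per the labels. RMA makes array distributions alike, so a shift of all genes together is not visible, and there are no detection calls. No genome build or filter is given in the sources used here. Precision is limited by the number of arrays.

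Gene names came from the platform annotation. A further 7 GPR symbols occurred only in probe sets with several symbols and were not analysed here. All 58 member symbols matched the RefSeq gene table of GCF_000001405.40 GRCh38.p14 by gene identifier. No filter on level was used, so all 58 members were tested.

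Differences were tested 2-sided by lmFit and eBayes of limma 3.58.1 (R 4.3.3), adjusted by Benjamini-Hochberg over every probe set on the array, with a threshold of 0.05, as the labels state, after a check on simulated data. Differences are SOD1(G93A) minus wild-type values, and SEs are moderated. An ordinary linear model, limma with trend and robust settings, brighter probe sets alone, array centring, array weights and omission of each array were alternatives, and a block on adjacent sample numbers was added later.

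Members, gene lists and tests were chosen with earlier results of these data known. The genes named were GPR22, the called members, the 10 brightest members, those next to a mean of 6, and the called genes of the lists; others were chosen after their values were seen.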

Additional observations from a re-analysis of the deposited data

Results flagged for a closer look

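Among 54 groups of 5 arrays, those of the named receptors and of the called signalling and partner genes, 2 held an array far from the other 4; chance gives about 1 in 20 groups. GPR139 was 6.97 in wild-type sample 17 and 7.39 to 7.51 in the other wild-type arrays. RGS16 was 8.17 in wild-type sample 11 and 7.73 to 7.78 in the other wild-type arrays.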

How the results depend on the processing

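GPR22, GPR176 and GPR137B kept their call and direction under all 18 alternatives, and GPR155 and GPR85 under all 17 that could test them; GPR22 ranged from 2.11 to 2.41 (adjusted p up to 0.00166). The count of called members was 5 with any 1 array left out, with 3 above a mean of 6 and 2 at 6 or below. Testing only probe sets brighter than the median gave 3 called members, since GPR155 and GPR85 were then not tested, and 2 RGS proteins; it gave no value for members at 6 or below. Adding the 2-fold threshold left 1 member, with 1 above 6 and 0 at 6 or below. Divided at a mean of 5, 5 members were called above and 0 below, where limma gave 3 of 33 an unadjusted p under 0.05 and both other tests called 0. With 1 array left out, called G protein subunits numbered 1 to 2, RGS proteins 3 to 5, kinases and arrestins 2 to 3, ligands and partners 4 to 5, and neighbouring genes 1 to 2. Neighbouring genes numbered 1, COG5, in the ordinary linear model, with trend, with brighter probe sets, with centring, with array weights and without samples 17 and 18 together, and G protein subunits then also numbered 1 without samples 17 and 18; that omission was chosen after seeing the data. GPR139, not called, ran from −0.12 to 0.012 with 1 array left out and was above 0 only without wild-type sample 8. The groups share no sample number, and the labels do not say whether adjacent numbers (2 and 3, 8 and 9, and so on) mark pairs. A fit with adjacent numbers as a replicate block, chosen after seeing the data, called the same 5 members (3 above 6, 2 at 6 or below) and 1213 probe sets in place of 1643; of the lists it called 1 G protein subunit, 2 RGS proteins (RGS4 and RGS9), 2 kinases and arrestins, 4 ligands and partners and 1 neighbouring gene. Deviations from the group means correlated between −0.034 and 0.14 within adjacent pairs, above 0.1 in 1 pair of 5, and 2 of the 5 wild-type samples correlated best with their adjacent number.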
